A study of Mus musculus with 6 samples.

Results

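Septins are GTP-binding proteins that assemble into filaments, and each filament is built from subunits of several septin homology groups. In dividing cells they form a ring at the cleavage furrow, and in cells that no longer divide they lie along actin fibres, microtubules and the plasma membrane, where they act as scaffolds and diffusion barriers. The genes described here are the 3 septins whose symbols appear as calendar dates in a deposited comparison of H19 knockdown with control myotubes. They were the rows listed as 2-Sep, 11-Sep and 1-Sep, and by position they were Sept2, Sept11 and Sept1, 3 of 3019 listed features. All 3 had a higher mRNA level in siH19 than in siCon, by 1.58-fold for Sept2, 1.39-fold for Sept11 and 1.91-fold for Sept1. Of all listed features 62.8% were higher in siH19 and 37.4% at least 1.5-fold higher, and the median difference of 0.45 on the log2 scale was next to that of Sept11 (0.48).

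The cells were a mouse C3H myoblast line that fuses into multinucleated myotubes after the change to differentiation medium. They received control siRNA (siCon) or siRNA against the H19 lncRNA (siH19) at 40 h of differentiation and were harvested 48 h later. The 40 h are from the authors' RNA-seq methods, and their general culture methods give a later time of transfection. The siRNA is the only difference recorded between the groups. Each group had 3 libraries of rRNA-depleted total RNA. The table analysed here gives 1 value for each group and feature, the authors' log2 FPKM over the 3 libraries (a fragment count normalised for transcript length and library size, on a log2 scale). The spread between libraries and their depth are therefore unknown, so that values are given with no error and no test of them was run, and a difference below is the siH19 group value minus the siCon group value. Every listed feature had been called significant by the authors, so that listing itself was decided by the contrast that is described. The differences of the septins are given as a description for that reason.

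H19, the siRNA target, was at 11.20 in siCon against 7.50 in siH19 on the log2 FPKM scale, which left 7.69% of the control level. Of 6 genes taken as markers of myotubes, 5 were listed, all of them higher in siH19 (62.8% of all listed features were) and 3 of them at least 1.5-fold higher (37.4% were), 1 of the 5 (Myh3) as a feature joined with other myosin heavy chain genes. Myog, a transcription factor of muscle differentiation, was at 7.79 and 9.22 on the log2 FPKM scale, and Acta1, the skeletal muscle actin, at 11.30 and 11.86. Of 4 markers of dividing or undifferentiated myoblasts only Myf5 was listed, at 3.41 in siCon against 3.03 in siH19 (log2 FPKM). By symbol, 11.0% of 21992 annotated protein-coding genes were listed, a share that counts genes not expressed in these cells among those not listed. Lists of 6 and 4 genes are too short to be read against it. The part that these shifts in muscle markers have in the septin values was not tested. In bulk RNA, more cells of a type and more RNA per cell cannot be told apart.

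The date spelling hides which gene a row belongs to, so each of the 3 was identified by its locus in mm10. Feature XLOC_000419, listed as 2-Sep, covers 93478993 to 93509732 on chromosome 1 and overlaps Sept2, which the GENCODE annotation of the same assembly carries under the identifiers ENSMUSG00000026276.20 and ENSMUSG00000116048.1, both on the plus strand. Feature XLOC_020547, listed as 11-Sep, covers 93093457 to 93176138 on chromosome 5 and overlaps Sept11 (ENSMUSG00000058013.11, plus strand). Feature XLOC_024566, listed as 1-Sep, covers 127214442 to 127218445 on chromosome 7 and overlaps Sept1 (ENSMUSG00000000486.13, minus strand). Sept1 is annotated up to position 127233130, but its transcript with the longest complete coding sequence spans 127214462 to 127218498, close to the bounds of the feature. In total, 7 rows of the table carry a date. The other 4 are Selenof, listed as 15-Sep, and March8, March9 and March11, none of which is a septin.

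The Sept2 and Sept11 promoters are shown because both genes were higher after H19 knockdown. RefSeq promoter windows were matched for 2 of the 3 septins, not for Sept1. The stretches lie upstream of the GENCODE start and of the RefSeq start used here and outside the neighbouring protein-coding gene. They are from RefSeq (GRCm38.p6) and are written on the plus strand. E boxes (CANNTG, the motif of basic helix-loop-helix factors) are in capitals, and binding of any factor to them was not tested.
Sept2, chr1:93478816-93478963: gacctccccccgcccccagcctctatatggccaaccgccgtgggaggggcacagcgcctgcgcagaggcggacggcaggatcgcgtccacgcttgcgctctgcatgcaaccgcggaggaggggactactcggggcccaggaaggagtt
Sept11, chr5:93093166-93093415: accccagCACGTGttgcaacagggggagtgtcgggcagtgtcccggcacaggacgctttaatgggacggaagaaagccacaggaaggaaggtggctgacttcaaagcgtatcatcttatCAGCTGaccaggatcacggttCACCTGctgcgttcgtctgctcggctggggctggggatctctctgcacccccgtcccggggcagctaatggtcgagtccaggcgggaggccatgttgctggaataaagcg

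The Sept11 stretch of 250 bases holds 3 E boxes, and the Sept2 stretch of 148 bases holds none. That stretch is all that separates Sept2 from Hdlbp, a gene transcribed in the opposite direction, so that both genes start from the same short interval. Hdlbp, which encodes an RNA-binding protein, was not among the listed features. In the RefSeq windows of 300 bases, from 250 before to 50 after the start, Sept11 has 4 E boxes and Sept2 has 1. Of 32851 such windows 72.3% hold at least 1, and the median is 1 per window. The share of windows with 4 or more was not computed. Of the same windows 35.7% hold a GC box (GGGCGG, either strand), with a median of 0 per window. It occurs 3 times at Sept2 and 2 times at Sept11. A TATA box (TATAAA, either strand) was found in neither window and in 13.6% of all. Both windows are rich in G and C, at 65.7% for Sept2 and 64.3% for Sept11 against a median of 52.7%. The transcription start of the Sept2 window used here (93478993) is the first base of the listed feature. Of the 2 windows of Sept2, the one with its transcription start nearest to that base had been taken. For Sept11, the transcription start minus the first base of its feature is -41 bases.

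Sept2, the subunit after which its homology group is named and a partner of non-muscle myosin, was the most abundant of the 3. Its group value was 6.91 in siCon and 7.57 in siH19 on the log2 FPKM scale, which corresponds to 120 and 190 FPKM. The difference of 0.66 on the log2 scale is 1.58-fold. The level of Sept2 exceeded that of 96.7% of the listed features, by the mean of the group values. Among the 143 features within 1 log2 unit of this mean, 111 were higher in siH19, and 37 (25.9%) had a difference at least as large as that of Sept2.

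Sept11, a member of the homology group named after Sept6 that is known from actin fibres and from neurons, was at 6.16 in siCon and 6.64 in siH19 on the log2 FPKM scale. These values correspond to 71.5 and 99.7 FPKM. The difference of 0.48 on the log2 scale (1.39-fold) was the smallest of the 3 as deposited, though not with 1 FPKM added to both group values (0.47, against 0.46 for Sept1), and lay next to the median of all listed features, 0.45. Of the 301 features of a like level, 214 were higher in siH19 and 127 (42.2%) had a difference at least as large.

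Sept1, which belongs to the homology group of Sept2 and is best known from lymphoid cells, was far less abundant than the others. Its level was -0.50 in siCon and 0.43 in siH19 on the log2 FPKM scale, or 0.707 and 1.35 FPKM, and 81.5% of the listed features lay above it. The difference of 0.93 on the log2 scale (1.91-fold) was the largest ratio among the 3 septins as deposited and the smallest change in FPKM, a gain of 0.640 against 28.2 for Sept11 and 69.8 for Sept2. With 1 FPKM added to both group values the order turned, and the log2 difference of Sept1 was 0.46, below 0.47 for Sept11 and 0.66 for Sept2. Features at this level were listed with larger differences in general. The 480 within 1 log2 unit of Sept1 had a median absolute difference of 0.91, against 0.52 around Sept2 and 0.48 around Sept11, and the smallest difference listed as higher there was 0.39, against 0.32 around each of the other septins. Of these 480, 261 (54.4%) were higher in siH19, and 29.4% had a difference at least as large as that of Sept1.

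**Figure D1:**
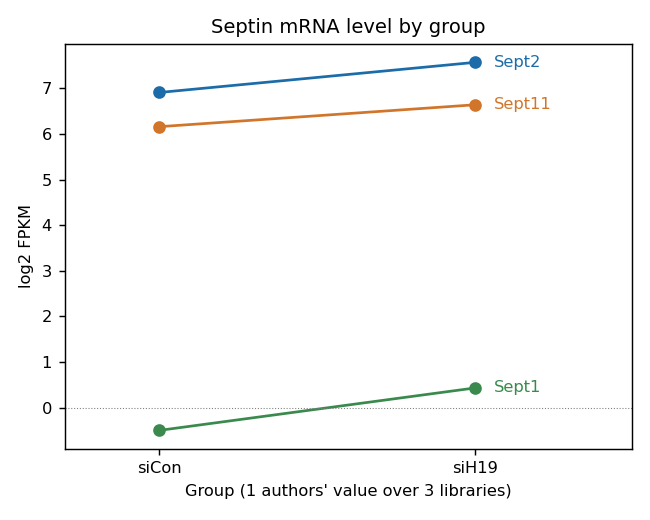
Level of each septin (log2 FPKM, vertical axis) in siCon and siH19; each point is 1 group value over 3 libraries and carries no error. Sept2 (6.91 and 7.57) and Sept11 (6.16 and 6.64) lie far above Sept1 (-0.50 and 0.43), and each line slopes upwards.

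The order of the levels, Sept2 above Sept11 above Sept1, was the same in both groups. FPKM is scaled to transcript length, so that levels can be set side by side between genes. Sept2 was at 1.68 times the FPKM of Sept11 in siCon and 1.91 times in siH19. Sept11 was at 101 times the FPKM of Sept1 in siCon and 74.0 times in siH19. Whether neighbours in this order differ beyond the spread between libraries cannot be said from 1 value per group.

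Set against the whole table, 2 of the 3 septins, Sept2 and Sept1, were at least 1.5-fold higher in siH19, and so were 37.4% of the listed features. None of the 3 reached 2-fold, which 16.9% of the listed features did. All 3 were higher in siH19, and so were 62.8% of the listed features. The median difference of the 3 septins was 0.66 on the log2 scale and that of all listed features 0.45. With the differences centred on that median, the septins stood at 0.48 for Sept1, 0.21 for Sept2 and 0.03 for Sept11, and none remained past 1.5-fold. With 1 FPKM added to both group values, Sept1 was no longer past 1.5-fold (0.46 on the log2 scale).

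**Figure D2:**
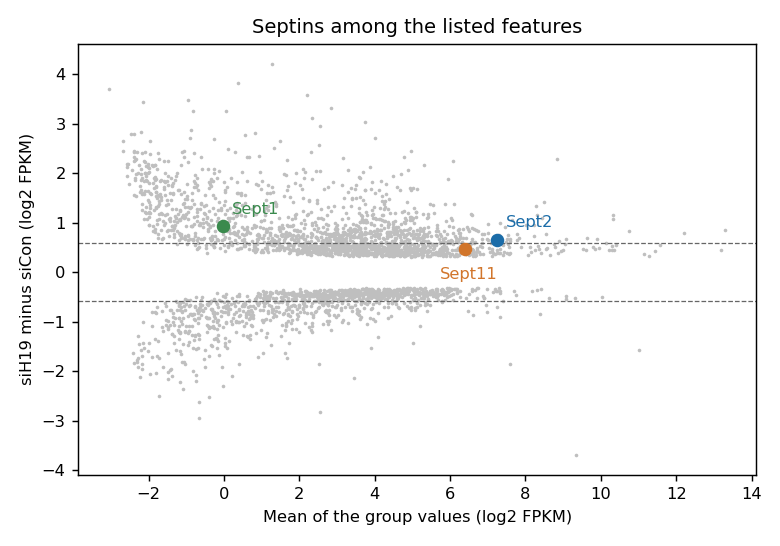
Difference between the groups (siH19 minus siCon, log2 FPKM) against the mean of the group values (log2 FPKM) for the listed features above the floor of the table, in grey, with the 3 septins in colour and dashed lines at 1.5-fold. Sept2 and Sept11 lie on the right, at 0.66 and 0.48, and Sept1 lies on the left, where grey points reach larger differences.

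Sept1 has an abundant muscle gene at its 3′ end. Mylpf, which encodes the regulatory light chain of fast skeletal myosin, is transcribed towards Sept1 on the opposite strand, and only 154 bases separate the features in the table (148 bases between the annotated genes). The Mylpf feature was at 11.81 in siCon and 12.61 in siH19 on the log2 FPKM scale, and only 2 listed features had a higher level. The FPKM of Sept1 was 0.0197% of that of Mylpf in siCon and 0.0215% in siH19, and the difference of Mylpf, 0.80 on the log2 scale, was 0.13 below that of Sept1. The libraries were made with a strand-specific kit, but the table does not give the strand of a feature or how reads were assigned to it. The part of Mylpf reads in the Sept1 value was not tested.

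**Figure D3:**
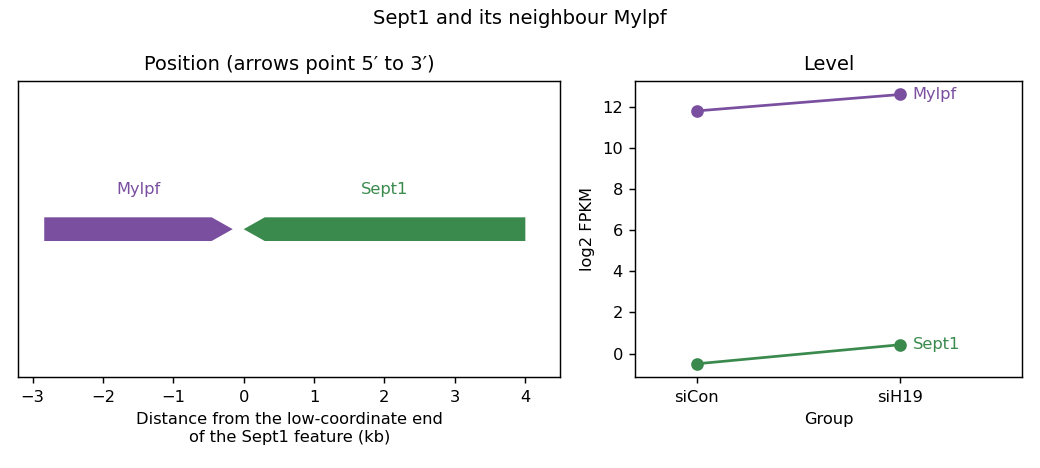
Left, position of the Mylpf and Sept1 features, as distance in kb from the low-coordinate end of the Sept1 feature, with arrows in the direction of transcription. Right, their levels (log2 FPKM, 1 group value each), with Mylpf at 11.81 and 12.61 and Sept1 at -0.50 and 0.43.

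The other listed neighbours lay farther away. On either side of Sept11 were Shroom3, which encodes an actin-binding protein, at a distance of 128 kb with a log2 difference of 1.10, and Ccng2, a cyclin gene, at 91.4 kb with a log2 difference of 0.56. The next listed features around Sept2 were Capn10, a calpain gene at 528 kb, and Pam, a peptide-amidating enzyme gene at 4311 kb, and both were lower in siH19, with log2 differences of -0.53 and -0.42. Beyond Sept1, on the side away from Mylpf, Fbrs followed at 260 kb with a log2 difference of 0.47.

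None of the other 10 mouse septin genes, Sept3 to Sept10, Sept12 and Sept14, was listed, either by symbol or by a feature overlapping its locus. Of the 21992 protein-coding genes of the annotation 11.0% were listed by symbol, and 10 genes are too few to be read against that share. Sept7, the subunit at the core of the common filaments, is among these unlisted septins, so that levels of its mRNA and of the other 9 were not analysed here. The 3 listed septins come from 2 homology groups, with Sept1 and Sept2 in one and Sept11 in the other. Over the aligned bases of the coding sequences, Sept11 was nearest to Sept6 (75.1% identical) and shared 58.6% with Sept2. Sept1 and Sept2 shared 64.4%, and both were nearest to Sept4 (67.7% and 66.9%). Sept1 and Sept2 encode proteins of nearly the same length, 366 and 361 residues, while Sept11 encodes 432.

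Reads of related genes can be split between them, and the annotated transcripts were searched for this. No stretch of 76 bases, the read length, of a Sept2, Sept11 or Sept1 transcript occurred in a transcript of another septin on either strand. For Sept2 and Sept1 none occurred in any other gene, and for Sept11 16 of 9787 stretches did (0.163%).

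Among 8 genes for Cdc42 effector proteins (the Borg family, which binds septins downstream of the GTPase Cdc42) and other septin partners, 3 were listed and 5 were not. All 3 were higher in siH19, as were 62.8% of all listed features, and 1 was at least 1.5-fold higher, as were 37.4%. The median difference of these 3 was 0.50 on the log2 scale, against 0.45 for all listed features. Cdc42ep4 was at 2.67 in siCon and 3.33 in siH19 on the log2 FPKM scale, a difference of 0.66. Cdc42ep1 was at 4.30 and 4.80, a difference of 0.50, and Map4, which encodes a microtubule-associated protein, at 6.85 and 7.26, a difference of 0.41. The difference of Cdc42ep4 equals that of Sept2, and that of Cdc42ep1 is close to that of Sept11. Of all listed features, 32.8% had a difference at least as large as that of Sept2, and 47.4% one at least as large as that of Sept11. The difference of Map4 is below all 3 septins and below the median of all listed features. By symbol, 11.0% of the 21992 protein-coding genes of the annotation were listed, a share that counts genes not expressed in these cells among those not listed. None of 9 genes of cytokinesis and the contractile ring was listed, Anln, Ect2 and Rhoa included. None of 7 genes of non-muscle actin and myosin was listed either, Myh9, Myh10 and Actb included. Lists of this size are too short to be read against that share.

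**Figure D4:**
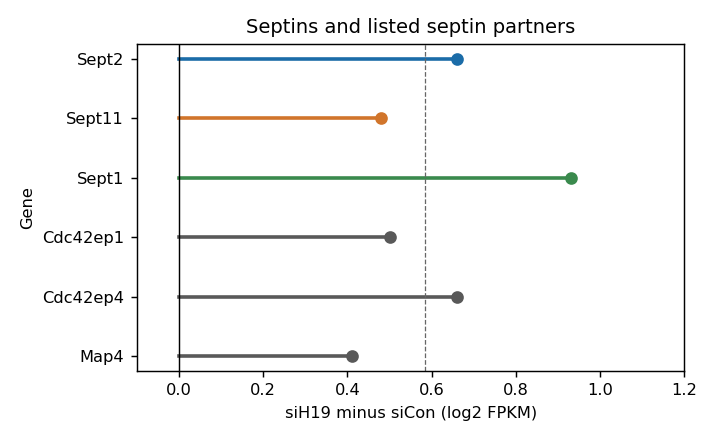
Difference between the groups (siH19 minus siCon, log2 FPKM, horizontal axis) for the 3 septins, in colour, and the 3 listed septin partners, in grey, with a dashed line at 1.5-fold. All 6 lie to the right of 0, from 0.41 for Map4 to 0.93 for Sept1.

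The listed genes nearest to each septin were taken by Euclidean distance over the 2 group values, a likeness that rests on level and difference in 2 groups only. Nearest to Sept2 were Ywhae, a 14-3-3 protein gene (6.91 and 7.53 on the log2 FPKM scale), Pfkm, the muscle phosphofructokinase gene (6.86 and 7.54), and Ckm, the muscle creatine kinase gene (6.91 and 7.67). Nearest to Sept11 were Tuba4a, an alpha-tubulin gene (6.14 and 6.69), Rnf7 (6.24 and 6.61) and 2900097C17Rik (6.24 and 6.60). Nearest to Sept1 were Entpd3, a nucleotidase gene (-0.53 and 0.48), Trpv6, a calcium channel gene (-0.56 and 0.45), and Gja3, a gap junction gene (-0.56 and 0.47). All distances lay between 0.04 and 0.10 log2 units.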

How the data were processed

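Myotubes transfected with siCon or siH19 were sequenced, with 3 libraries per group and paired reads of 76 bases. Alignment by the authors was to mm10 in the TopHat app, version 1.0.0 (TopHat2 2.0.7 in the submitters' processing notes), followed by assembly in Cufflinks and group comparison by Cuffdiff 2.1.1. The annotation used is not given in the sources used here. The deposited values are log2 FPKM, 1 per group over its 3 libraries, normalized by Cuffdiff and rounded to 2 decimals, for significant features only. The table also holds the authors' fold changes and q-values, which were not used.

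Differences were computed as siH19 minus siCon and locus starts were counted from 1. No new test was possible on 1 value per group. Depth is unknown, so precision is too. Coding sequences (GENCODE M21, GRCm38, the longest complete one per gene) were aligned globally with biopython 1.88 (match 1, mismatch -1, gap opening -5, gap extension -0.5). The computations ran in pandas 2.3.3 with numpy 2.4.6 under Python 3.11.15, with matplotlib 3.10.9 for figures. On a simulated table of 3000 features without noise, the counts of higher and lower features recovered all 200 and 100 that had been made so. That checks the counting only. Named genes were the 3 septins, H19, the listed genes of the septin partner, cytokinesis, actomyosin and marker lists, the 3 single-symbol features nearest to each septin and the nearest listed feature on each side. Genes named outside that rule, among them Hdlbp, Selenof, the March genes and the unlisted septins and other unlisted genes of the lists, were named after the table had been read. The members and lists were chosen with earlier results of these data known. Alternatives were a pseudocount of 1 FPKM, centring, rounding limits, a 2-fold limit and filters on the features counted.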

Additional observations from a re-analysis of the deposited data

How the results depend on the processing

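Of the alternatives run, only centring could turn the direction of a septin, and it turned none. Centred on the median of the listed features above the floor of the table (0.45), the log2 difference was 0.21 for Sept2, 0.03 for Sept11 and 0.48 for Sept1. With 1 FPKM added to both group values, that of Sept1 was 0.46 instead of 0.93, so that it was no longer past 1.5-fold and became the smallest of the 3, while those of Sept2 and Sept11 moved by less than the rounding of the table (0.01). The share of listed features at least 1.5-fold higher in siH19, 37.4%, was 30.8% among features with a gene symbol and 33.7% among those whose higher group value was not below 0 (log2 FPKM), and 16.9% were at least 2-fold higher. No paired analysis was possible because the table holds 1 value per group, and leaving out a replicate was not run for the same reason. A departure of 1 library can therefore not be told apart from a difference between the groups, and the precision at the low level of Sept1 is unknown.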
